A study of Mus musculus with 16 samples.

Results

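The genes described here are those that carry pyruvate into the mitochondrion and oxidise it in the tricarboxylic acid (TCA) cycle, 33 genes by name. A member was measured if at least 1 probe set of the array was annotated to that gene alone, and the probe set with the highest mean log2 intensity over the 16 arrays stood for the gene. By this rule 32 of the 33 members were found, among 18194 genes in all. Mpc2, which encodes the partner of Mpc1 in the mitochondrial pyruvate carrier, was named by no such probe set and was not analysed here. Probe sets were chosen by gene name and overall intensity, not by the groups. The list of members itself was chosen with earlier results of these data known.

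The study profiled mouse neural crest stem cells (NCSCs), the migratory embryonic cells that give rise to peripheral neurons, glia and mesenchymal derivatives, before and after priming towards one of these fates. Total RNA of primary mouse cells was hybridised to 16 Affymetrix arrays, with 4 arrays in each of 4 groups: cells not primed (NCSCs), and cells primed to glia (Glia), to neurons (Autonomic) or to mesenchyme (Mesenchymal). Priming was done with instructive growth factors, and the culture medium of the stem cells followed an earlier published recipe. The sources used here give neither strain, genotype nor age, and neither the identity, dose nor duration of the factors. The labels number the arrays of a group without naming the culture or embryo behind each, and the p-values therefore cover the spread among arrays alone, which may be technical. The arrays measure RNA pooled over many cells, so that fewer cells of a type and less RNA per cell cannot be told apart.

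Pyruvate from glycolysis enters the mitochondrion through a carrier and is turned into acetyl-CoA by the pyruvate dehydrogenase complex, which a family of kinases (Pdk) switches off by phosphorylation. Acetyl-CoA joins oxaloacetate to form citrate, and the cycle then oxidises it step by step back to oxaloacetate, with electrons passed on to the respiratory chain. Isocitrate dehydrogenase exists as a cytosolic NADP enzyme (Idh1), a mitochondrial NADP enzyme (Idh2) and a mitochondrial NAD enzyme built from Idh3a, Idh3b and Idh3g subunits, of which only the last is the classical cycle step. Pyruvate dehydrogenase kinases are known targets of hypoxia signalling, and cells that divide quickly often send pyruvate to lactate instead.

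Pdk1 and Idh1 were the members with called differences, and their promoter windows are printed because they share a sequence element. Each window runs from 250 bases before to 50 bases after the transcription start, in RefSeq's GRCm38.p6 assembly, and is written 5′ to 3′ on the gene's strand. The capitals mark CACCCCAC, part of the sterol regulatory element, which lies 156 bases before the start in Pdk1 and 59 bases before it in Idh1. The Pdk1 window is chr2:71872974-71873273 on the plus strand, and the Idh1 window is chr1:65179093-65179392 on the minus strand.
Pdk1: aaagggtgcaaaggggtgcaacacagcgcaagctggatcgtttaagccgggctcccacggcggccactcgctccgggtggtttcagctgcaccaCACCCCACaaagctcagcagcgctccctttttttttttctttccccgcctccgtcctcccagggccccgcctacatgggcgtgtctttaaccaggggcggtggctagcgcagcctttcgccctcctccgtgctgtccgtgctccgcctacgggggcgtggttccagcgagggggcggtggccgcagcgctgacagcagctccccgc
Idh1: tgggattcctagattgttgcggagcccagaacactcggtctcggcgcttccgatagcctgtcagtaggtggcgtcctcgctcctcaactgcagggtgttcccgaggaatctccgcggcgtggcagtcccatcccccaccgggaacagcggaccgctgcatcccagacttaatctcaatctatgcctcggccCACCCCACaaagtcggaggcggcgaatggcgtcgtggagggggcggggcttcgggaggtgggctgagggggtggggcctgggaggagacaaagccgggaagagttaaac

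Windows were held for 31 of the 33 members. CACCCCAC, searched on both strands, occurred in 2 of these 31 (6.45%), Pdk1 and Idh1, against 3.3% of 27025 genes and 2.87% of 32851 windows of 300 bases. Each of these genes has 2 annotated windows, of which 1 held the element. The core of the hypoxia response element, ACGTG, occurred in 8 members (25.8%) against 21.8% of genes and 19.6% of windows: Idh3g, Mdh1, Ogdh, Pcx, Pdhb, Pdk2, Pdk3 and Sdha. It was not among the letters of the Pdk1 or Idh1 windows. AAGGTCA, the half-site of estrogen-related receptors, occurred in Got1, Ogdh and Sdhd (9.68% against 5.38% of genes and 4.72% of windows). AANATGGC, bound by YY1, occurred in Idh3b, Idh3g and Ogdh (9.68% against 6.96% of genes and 6.05% of windows), and GCGCATGCG, bound by NRF1, in Ogdh (3.23% against 1.95% of genes and 1.75% of windows). The matches, all searched on both strands, are descriptions of these windows only.

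Several properties of the arrays moved with the groups. The log2 ratio of the 3′ to the 5′ Gapdh control probe sets was 2.35 ± 0.187 (SD, n = 4) in NCSCs, 2.95 ± 0.391 in Glia, 2.85 ± 0.242 in Autonomic and 2.96 ± 0.222 in Mesenchymal. The same ratio for actin was -0.531 ± 0.158 in NCSCs, -0.17 ± 0.0786 in Glia, -0.497 ± 0.284 in Autonomic and -0.282 ± 0.15 in Mesenchymal, with the Glia arrays all above those of NCSCs and the other groups overlapping them. The log2 intensity of Xist, a transcript of the inactive X, was 6.39 to 10.5 in NCSCs and 2.61 to 5.34 in Glia, without overlap. It spanned 3.15 to 10.6 in Autonomic and 2.68 to 11.2 in Mesenchymal. The 8 markers of mesenchyme and smooth muscle had a summed linear intensity of 445 to 1545 in NCSCs, 3195 to 3940 in Glia, 1035 to 4974 in Autonomic and 1947 to 7035 in Mesenchymal. Of these markers, Col1a2 alone was called in Glia against NCSCs, higher by 2.05 (SE 0.379, adjusted p = 0.0335). The autonomic neuron list (8 of 10 measured) summed to 803 to 1436 in NCSCs and 1130 to 1683 in Autonomic with none of its genes called, and Th, which makes catecholamines, lay below the array medians in every group (group means 1.95 to 2.74). The glia list (6 of 8 measured) summed to 634 to 1006 in NCSCs and 779 to 1284 in Glia, also with none called. The crest list of 10 genes summed to 1083 to 2151 in NCSCs and 1174 to 1643, 867 to 1293 and 1595 to 2337 in Glia, Autonomic and Mesenchymal. Against NCSCs, 5 of the 10 crest estimates were negative and 5 positive in Glia (median 0.033). In Autonomic 8 were negative and 2 positive (median -0.527). In this list Ngfr alone, the neurotrophin receptor used to mark crest stem cells, was called lower in Glia (-1.87, SE 0.385, adjusted p = 0.0479) and Autonomic (-2.75, SE 0.385, adjusted p = 0.00554) than in NCSCs. Ngfr was also called lower in both than in Mesenchymal (-2.19, adjusted p = 0.0307, and -3.07, adjusted p = 0.00356). The estimates of Pdk1 and Idh1 were likewise lower in Glia and Autonomic than in NCSCs and Mesenchymal. Sums for the 3 measured blood markers reached 425 in NCSCs, 25 in Glia, 552 in Autonomic and 331 in Mesenchymal, and for the 4 neural tube markers 1013, 81, 1164 and 813. Lists for endothelium, skeletal muscle, epidermis and immune cells summed to at most 52 in every array. The part of these properties in the results on TCA genes was not tested, and fits with a covariate are given as alternatives only. Xist did not overlap between NCSCs and Glia, nor did the Gapdh ratio between NCSCs (2.2 to 2.58) and Mesenchymal (2.66 to 3.13). In these comparisons the group and the property cannot be told apart.

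A call below means an adjusted p under 0.05 in limma's moderated linear model over all 18194 genes, with Benjamini-Hochberg adjustment. Pdk1 and Idh1 carried all the calls among the 32 members in the 7 comparisons. Idh1 was lower in Glia and in Autonomic than in NCSCs, and Pdk1 was lower in both than in Mesenchymal. In these 7 comparisons the other 30 members did not pass, and no member was called higher. All comparisons with NCSCs share the same 4 control arrays, so their values are not independent of each other.

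Pdk1 encodes a kinase that inactivates pyruvate dehydrogenase. Its log2 intensities were 5.76, 7.22, 6.13 and 7.70 in NCSCs and 8.17, 6.55, 8.36 and 7.41 in Mesenchymal. They were 5.40, 4.91, 4.32 and 4.10 in Glia and 4.55, 4.56, 4.94 and 4.05 in Autonomic. Every Glia and Autonomic array lay below every NCSCs and Mesenchymal array. Pdk1 was lower in Glia than in Mesenchymal by a log2 change of -2.94 (SE 0.466, adjusted p = 0.0176), which is 0.131 of the Mesenchymal intensity. It was lower in Autonomic than in Mesenchymal by -3.09 (SE 0.466, adjusted p = 0.00749), or 0.117 of that intensity. Against NCSCs the estimates were -2.02 in Glia (SE 0.466, adjusted p = 0.0808) and -2.18 in Autonomic (SE 0.466, adjusted p = 0.0636), neither of which passed. Mesenchymal differed from NCSCs by 0.92 (95% interval -0.08 to 1.92, adjusted p = 0.679), and Glia from Autonomic by 0.16 (-0.84 to 1.15, adjusted p = 0.989).

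The Glia to Mesenchymal call of Pdk1 was lost in 7 of 31 alternatives, including the omission of Glia replicate 3 (adjusted p = 0.0659), Glia replicate 4 (0.0509), Mesenchymal replicate 1 (0.0635) or Mesenchymal replicate 3 (0.0665). With the Xist level as a covariate, an alternative chosen after the data were seen, the change was -2.30 (adjusted p = 0.133), and the change of Glia against NCSCs was -1.24 (adjusted p = 0.479) in place of -2.02. The Autonomic to Mesenchymal call was lost in 1 of 31, with the most variable probe set (adjusted p = 0.142). Pdk1 had 4 probe sets, and the comparisons with NCSCs passed under some alternatives. With the same probe set, Autonomic passed over genes above the median intensity (adjusted p = 0.0394) and without Mesenchymal replicate 2 (adjusted p = 0.0421). With the most variable probe set, Glia passed (adjusted p = 0.0274) and Autonomic did not (adjusted p = 0.179). Averaged over the 4, the log2 change was -2.11 in Glia (adjusted p = 0.00264) and -2.0 in Autonomic (adjusted p = 0.00509). The 2 next brightest probe sets gave -2.32 and -4.70 in Glia, -2.56 and -3.09 in Autonomic, and 0.33 and 0.38 in Mesenchymal. The fourth, at a mean log2 intensity of 2.02, gave 0.62, -0.16 and 0.72.

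**Figure D1:**
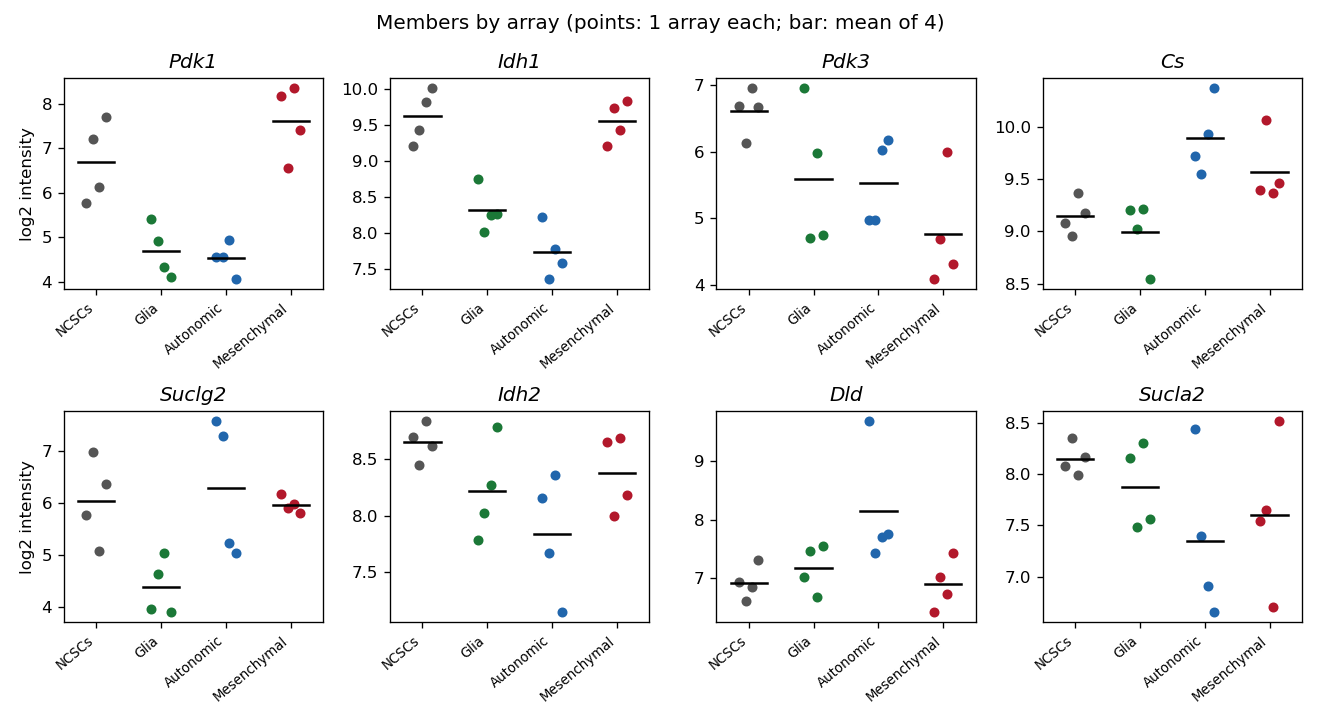
Log2 intensity (vertical axes, each with its own range) of 8 members in the 16 arrays, by group, with 1 point per array and a bar at the mean of 4. Pdk1 and Idh1 lie lower in Glia and Autonomic than in NCSCs and Mesenchymal without overlap, whereas a single Autonomic array at 9.68 stands above the rest in Dld.

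Of the other kinases, Pdk3 read 6.69, 6.13, 6.96 and 6.68 in NCSCs and 4.08, 4.68, 5.99 and 4.31 in Mesenchymal, with no overlap. It read 6.96, 4.70, 5.98 and 4.75 in Glia and 4.97, 4.97, 6.03 and 6.17 in Autonomic. The Mesenchymal change was -1.85 (SE 0.516) with an adjusted p of 0.357, and it was -1.76 (adjusted p = 0.414) with the Xist covariate. Pdk3 is X-linked, as are Pdha1 and Idh3g. Pdk2 was dim in all groups, with a mean log2 intensity of 2.22 over the 16 arrays, where array medians lay between 3.05 and 3.15. Its estimates against NCSCs were -0.88, -0.14 and -0.58 in Glia, Autonomic and Mesenchymal, and none passed. They rested on NCSCs replicate 3, at 4.71 where the other NCSCs arrays read 1.89, 2.28 and 1.61. Without it they were -0.18, 0.56 and 0.12.

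Idh1, the cytosolic enzyme that makes NADPH from isocitrate, read 9.21, 9.43, 9.82 and 10.01 in NCSCs and 9.20, 9.73, 9.43 and 9.83 in Mesenchymal. It read 8.75, 8.01, 8.25 and 8.27 in Glia and 8.22, 7.36, 7.78 and 7.58 in Autonomic. NCSCs and Mesenchymal overlapped fully, and every array of the other groups lay below both. Idh1 fell by 1.30 on the log2 scale in Glia against NCSCs (SE 0.24, adjusted p = 0.0335), to 0.406 of the intensity. It fell by 1.88 in Autonomic (SE 0.24, adjusted p = 0.00237), to 0.271 of the intensity. Mesenchymal differed from NCSCs by -0.07 (95% interval -0.59 to 0.44, adjusted p = 0.969), an interval that lies within a 2-fold change. The mean of the 3 primed groups was lower than NCSCs by -1.09 (SE 0.196, adjusted p = 0.0342).

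The difference between primed groups was itself tested. Idh1 was lower in Autonomic than in Mesenchymal by -1.81 (SE 0.24, adjusted p = 0.00378), and the same contrast for Glia gave -1.23 (SE 0.24, adjusted p = 0.0557), which did not pass. Glia was estimated above Autonomic by 0.58 (95% interval 0.07 to 1.10, adjusted p = 0.762), which did not pass. The 2 probe sets of Idh1 both carry the suffix for possible matches to several transcripts. The dimmer, at a mean of 8.76 against 8.81, gave -1.35 in Glia, -1.21 in Autonomic and -0.10 in Mesenchymal against NCSCs. For Glia against Autonomic it gave -0.142, of the opposite sign.

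The Autonomic call of Idh1 held in 29 of 30 alternatives and was lost when the NCSCs and Autonomic arrays alone were fitted (adjusted p = 0.0504). The Glia call was lost in 13 of 30, where adjusted p ranged from 0.00364 to 0.311. These included the omission of NCSCs replicate 2 (adjusted p = 0.0625), 3 (0.0854) or 4 (0.107) and of Glia replicate 2 (0.0831), 3 (0.0854) or 4 (0.0772), with estimates between -1.36 and -1.17. With the Gapdh 3′ to 5′ ratio as a covariate the Glia change was -1.48 (adjusted p = 0.116), and with the Xist covariate it was -1.47 (adjusted p = 0.0994). The call on the primed mean was lost in 14 of 29, including without NCSCs replicate 2 (adjusted p = 0.0704), 3 (0.0966) or 4 (0.153), Glia replicate 2 (0.0562) or 3 (0.0536), Autonomic replicate 4 (0.057), and Mesenchymal replicate 1 (0.0538) or 3 (0.0556). The Autonomic to Mesenchymal call was lost in 1 of 30, under centring on housekeeping genes (adjusted p = 0.0586).

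**Figure D2:**
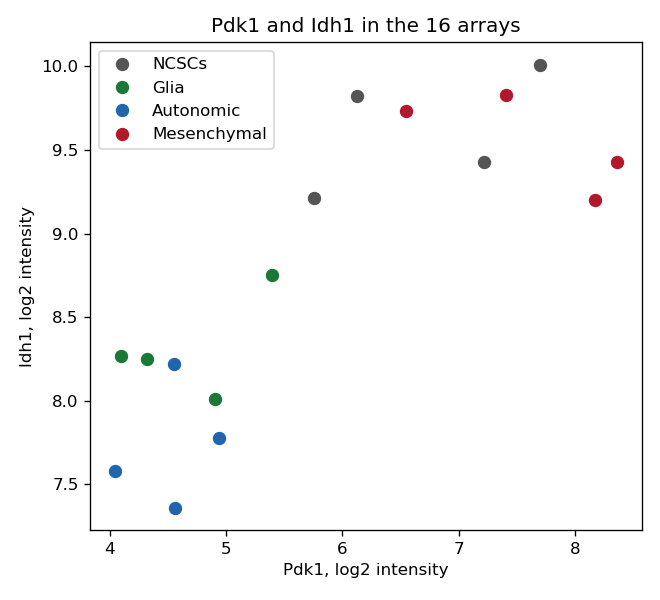
Log2 intensity of Pdk1 (horizontal axis) against that of Idh1 (vertical axis), with 1 point per array coloured by group. The Glia and Autonomic arrays lie at low values of both genes and the NCSCs and Mesenchymal arrays at high values. Deviations from the group means correlated over the 16 arrays with a Pearson r of 0.148, given as a description.

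The remaining enzymes from citrate to oxoglutarate gave no call. Cs, citrate synthase, which opens the cycle, read 9.08, 8.95, 9.37 and 9.17 in NCSCs, 9.20, 9.02, 9.21 and 8.54 in Glia, 9.72, 9.55, 9.93 and 10.37 in Autonomic, and 9.39, 10.06, 9.37 and 9.46 in Mesenchymal. All Autonomic arrays lay above all NCSCs arrays, with a change of 0.75 (SE 0.22, adjusted p = 0.198). The other probe sets of Cs did not share it, with -0.03 and -0.16 in Autonomic. In Mesenchymal the probe set used gave 0.428 and the others -0.345 and -0.269. Idh2 read 8.70, 8.45, 8.84 and 8.62 in NCSCs, 7.78, 8.02, 8.27 and 8.79 in Glia, 8.16, 7.67, 8.36 and 7.14 in Autonomic, and 8.65, 8.0, 8.69 and 8.18 in Mesenchymal. Its Autonomic arrays lay below those of NCSCs by -0.82 (SE 0.276, adjusted p = 0.286), whereas its other probe set gave 0.00. The subunits of the NAD enzyme, Idh3a, Idh3b and Idh3g, had estimates from -0.50 to 0.49 against NCSCs. The other probe set of Idh3g gave -0.69, -0.38 and -0.49 in Glia, Autonomic and Mesenchymal, where the one used gave 0.25, 0.01 and 0.03. Aco1, the cytosolic aconitase that also acts as an iron sensor, had the estimates -1.27, -0.38 and -0.46 in Glia, Autonomic and Mesenchymal, with an SD of 1.58 among the NCSCs arrays. Its next brightest probe set, at a mean of 5.83 against 6.31, gave -0.72, -1.18 and 0.71.

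In the pyruvate dehydrogenase complex, none of the 5 genes was called in any comparison. Dld, the lipoamide dehydrogenase shared with the oxoglutarate dehydrogenase complex, read 6.93, 6.61, 6.85 and 7.31 in NCSCs and 9.68, 7.43, 7.70 and 7.76 in Autonomic. It read 7.02, 7.46, 6.68 and 7.55 in Glia and 6.42, 7.03, 6.73 and 7.43 in Mesenchymal. The Autonomic arrays all lay above those of NCSCs, by 1.22 (SE 0.41, adjusted p = 0.286), and by 0.71 (adjusted p = 0.304) without Autonomic replicate 1. Pdha1 and Pdhb, the subunits of the catalytic component that the kinases phosphorylate, were estimated lower than NCSCs in each primed group, by -0.40, -0.36 and -0.33 for Pdha1 and -0.51, -0.15 and -0.42 for Pdhb in Glia, Autonomic and Mesenchymal, within 95% intervals that all include 0. Dlat, the acetyltransferase core, had estimates between -0.28 and 0.44. Pdhx, which docks Dld onto the core, had estimates between -0.15 and 0.38.

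At the entry of pyruvate, Mpc1 of the carrier was dim, with a mean log2 intensity of 3.31 near the array medians, and its estimates of 0.62, 0.33 and 0.71 had 95% intervals that include 0. Pcx, which carboxylates pyruvate to oxaloacetate, was represented by an Affymetrix control probe set for its 5′ region at a mean of 3.62, with estimates between -0.03 and 0.07.

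Between oxoglutarate and succinate no gene was called. Suclg2, the subunit of the GTP form, read 5.76, 6.98, 5.07 and 6.37 in NCSCs and 3.96, 4.63, 5.04 and 3.90 in Glia. It read 7.57, 7.28, 5.23 and 5.04 in Autonomic and 6.17, 5.90, 5.97 and 5.80 in Mesenchymal. The Glia arrays lay just below those of NCSCs, with a change of -1.66 (SE 0.548, adjusted p = 0.275) and of -0.84 at its other probe set. Sucla2, the subunit of the ATP form, read 8.08, 8.35, 7.99 and 8.17 in NCSCs, 8.16, 7.48, 8.30 and 7.56 in Glia, 8.44, 7.40, 6.91 and 6.65 in Autonomic, and 7.54, 7.65, 6.70 and 8.52 in Mesenchymal. Groups overlapped, and the Autonomic change of -0.80 (SE 0.393, adjusted p = 0.543) was -1.16 without Autonomic replicate 1. Ogdh and Dlst, of the oxoglutarate dehydrogenase complex, and Suclg1, the common subunit of the ligase, had estimates from -0.77 to 0.27.

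In the later steps no gene was called, and the malate dehydrogenases differed little in estimate. Mdh2, the mitochondrial malate dehydrogenase, had group means between 11.81 and 11.97 and changes of 0.01, 0.12 and 0.16 in Glia, Autonomic and Mesenchymal. Mdh1, its cytosolic counterpart, had changes of -0.13, -0.05 and 0.08, and Sdhd, a membrane anchor of succinate dehydrogenase, -0.08, -0.10 and 0.13. For Mdh1, Mdh2, Sdhb and Sdhd the 95% intervals against NCSCs lay within a 2-fold change in each primed group, at the probe sets used. The other probe set of Sdhd, at a mean log2 intensity of 7.79, gave -1.09, -0.14 and -0.63 in Glia, Autonomic and Mesenchymal. Sdha, the flavoprotein subunit, had all Autonomic arrays below all Mesenchymal arrays, by -0.89 (SE 0.347, adjusted p = 0.479), but 0.04 at the next brightest of its probe sets. Against NCSCs its estimates were -0.52, -0.48 and 0.41 in Glia, Autonomic and Mesenchymal, and 0.05, -0.02 and -0.06 at that probe set. Glia against Mesenchymal gave -0.93 (adjusted p = 0.572), and 0.11 at that probe set. Sdhc, also a membrane anchor, and Fh1, fumarase, had estimates from -0.31 to 0.33. The other probe set of Sdhc gave -0.679, -0.455 and -0.396 in Glia, Autonomic and Mesenchymal, where the one used gave 0.176, 0.334 and 0.252. Got1, Got2 and Glud1, which link the cycle to aspartate and glutamate, had estimates from -0.41 to 0.20.

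**Figure D3:**
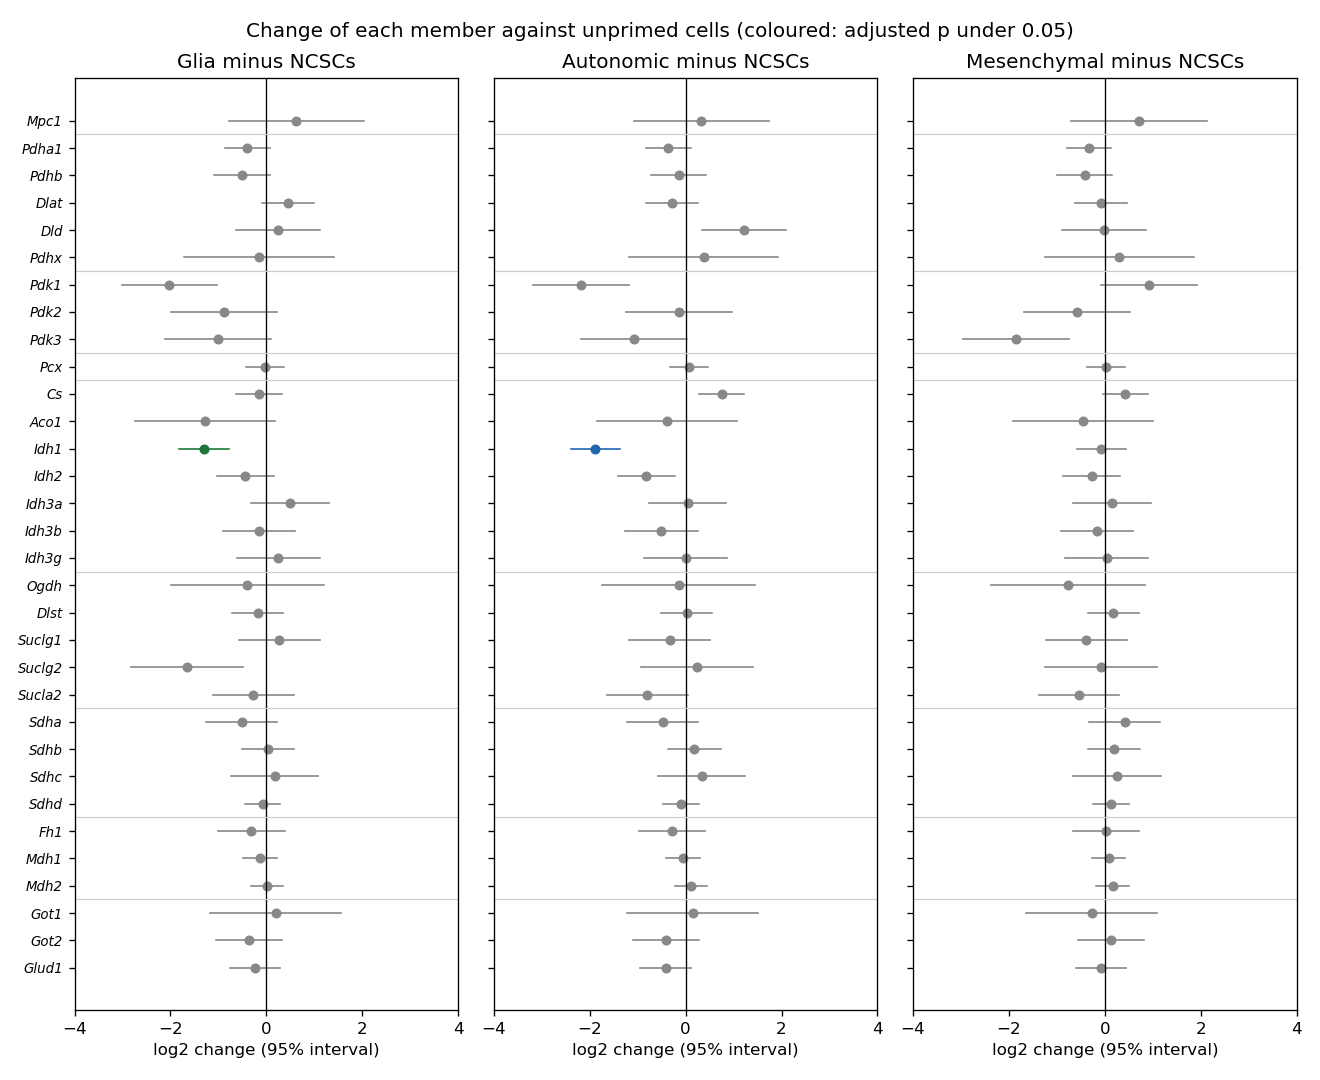
Log2 change of 32 members against NCSCs (horizontal axes, fitted estimate with its 95% interval) in Glia, Autonomic and Mesenchymal, ordered by step of the pathway, with called members in colour. Idh1 is called in Glia at -1.30 and in Autonomic at -1.88, and the intervals of most other members include 0.

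Counted over the members, 1 of 32 was called in Glia against NCSCs, lower, where 0.511% of all genes were called. In Autonomic against NCSCs it was also 1, lower, with 0.434% of all genes, and in the mean of the primed groups 1, lower, with 0.445%. In Mesenchymal against NCSCs 0 members were called by limma, with 0.022% of all genes called, and 1 member had an unadjusted p under 0.05. Between Glia and Autonomic 0 were called by limma, with 0.011% of all genes called, and 5 members had an unadjusted p under 0.05 (15.6%, all genes 6.24%). Glia against Mesenchymal had 1 member called, lower, at a background of 0.225%, and Autonomic against Mesenchymal had 2, both lower, at 0.346%. At an unadjusted p under 0.05 the counts against NCSCs were 3 in Glia (9.38%, all genes 9.91%), 5 in Autonomic (15.6%, all genes 9.8%) and 1 in Mesenchymal (3.12%, all genes 7.7%), on both sides of the shares of all genes. They were 4 for the primed mean (12.5%, all genes 10.2%), 5 in Glia against Mesenchymal (15.6%, all genes 7.05%) and 4 in Autonomic against Mesenchymal (12.5%, all genes 8.23%). Most members are bright, whereas these shares of all genes include dim ones. Fitted over the genes above the median intensity alone, 106 genes were called in Glia and 96 in Autonomic against NCSCs. Over all genes these counts were 93 and 79.

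Arrays of some members did not overlap between groups. Most members are bright, whereas the shares of all genes given here include dim ones, and bright genes were not counted apart. In Glia 3 members lay wholly below NCSCs (Pdk1, Idh1 and Suclg2), 9.38% against 4.16% of all genes, and 0 lay wholly above, where 3.02% of all genes did. In Autonomic 3 lay below (Pdk1, Idh1 and Idh2), against 3.24% of all genes, and 2 above (Dld and Cs), 6.25% against 2.29%. In Mesenchymal 1 lay below (Pdk3) and 1 above (Cs), 3.12% each, against 3.29% and 2.41%. Against Mesenchymal, 4 members lay wholly lower in Glia (Pdk1, Cs, Idh1 and Suclg2), 12.5% against 2.46%, and 3 in Autonomic (Pdk1, Idh1 and Sdha), 9.38% against 2.08%. The counts hold for the probe sets used. Other probe sets of Cs and Idh2 did not share the differences from NCSCs, nor did the next brightest of Sdha that from Mesenchymal.

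The median log2 change of the members was -0.166 in Glia (all genes -0.00622), -0.142 in Autonomic (all genes 0.00425) and 0.000524 in Mesenchymal (all genes -0.00579). In Glia 22 of 32 estimates were negative (68.8%, all genes 50.8%), in Autonomic 19 (59.4%, all genes 49.5%) and in Mesenchymal 16 (50%, all genes 50.8%). Most members are bright, and over the genes above the median intensity, which include 29 members, the medians were -0.18 in Glia (all such genes -0.111), -0.147 in Autonomic (-0.0861) and -0.0221 in Mesenchymal (-0.108). Centring on housekeeping genes moved the median of all genes in Glia to 0.26 and turned that of the members to 0.0997, still below it. The mean log2 intensity of the members per array was 7.54 to 7.66 in NCSCs, 7.15 to 7.45 in Glia, 7.17 to 7.58 in Autonomic and 7.40 to 7.68 in Mesenchymal. By this mean the Glia arrays lay below the NCSCs arrays without overlap, as did the mean of all genes (4.45 to 4.47 against 4.49 to 4.52), and the median over members overlapped (7.53 to 7.87 in Glia, 7.74 to 7.95 in NCSCs).

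How much change the arrays could have missed is given by the intervals. The 95% intervals included 0 for 29 of 32 members in Glia, 27 in Autonomic and 31 in Mesenchymal. They lay wholly within a 2-fold change for 11, 13 and 18 members, where 53.4%, 53.2% and 53.8% of all genes did. The median distance from estimate to bound was 0.749 on the log2 scale, with a range of 0.337 to 1.60.

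**Figure D4:**
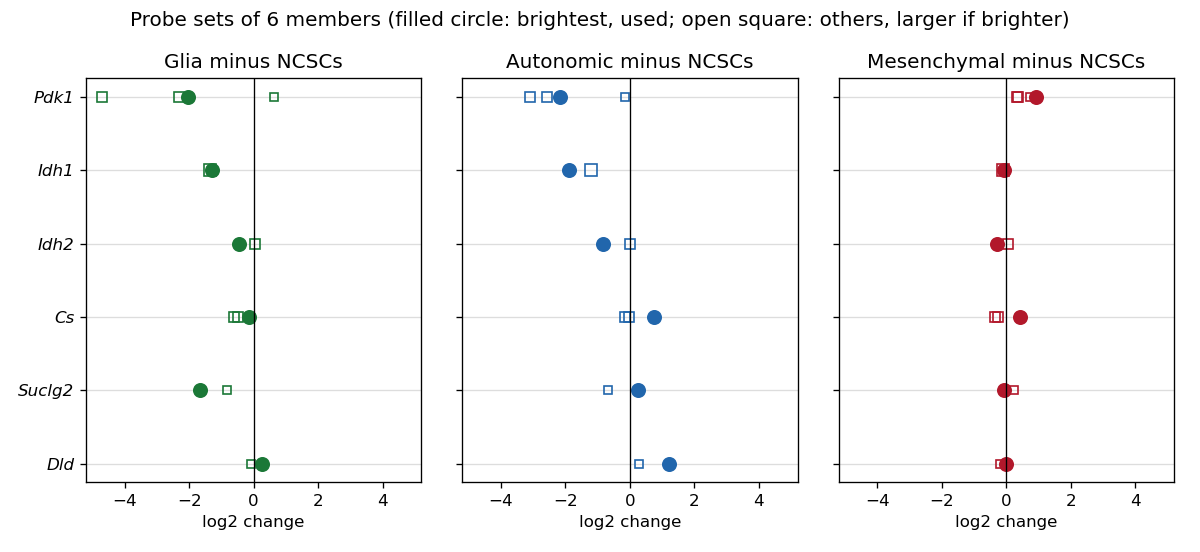
Log2 change against NCSCs (horizontal axes) of each probe set of 6 members, with the brightest, used throughout, as a filled circle and the others as open squares that are larger where brighter. Both probe sets of Idh1 lie below 0 in Glia and Autonomic, while in Autonomic those of Cs lie on both sides of 0.

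Other genes around the pathway, such as lactate dehydrogenases, malic enzymes, phosphatases of the pyruvate dehydrogenase complex, mitochondrial carriers and assembly factors of succinate dehydrogenase, were followed through a list of 39, of which 34 were measured. None of the 34 was called by limma in any of the 7 comparisons. The list was chosen with earlier results of these data known, so the shares below are descriptions and no independent support. At an unadjusted p under 0.05 there were 10 in Glia (3 higher, 7 lower; 29.4% against 9.91% of all genes), 8 in Autonomic (1 higher, 7 lower; 23.5% against 9.8%) and 2 in Mesenchymal (both lower; 5.88% against 7.7%) against NCSCs. There were 8 for the primed mean (23.5% against 10.2%), 3 between Glia and Autonomic (8.82% against 6.24%), 7 between Glia and Mesenchymal (20.6% against 7.05%) and 5 between Autonomic and Mesenchymal (14.7% against 8.23%). The median change of the list was -0.285, -0.347 and -0.257 in Glia, Autonomic and Mesenchymal, where that of all genes was -0.00622, 0.00425 and -0.00579. Ldha, the lactate dehydrogenase subunit that favours lactate formation, gave the smallest p, with -1.25 in Autonomic against Mesenchymal (SE 0.257, adjusted p = 0.0603) and -1.07 against NCSCs (adjusted p = 0.103). Acly, which splits exported citrate into acetyl-CoA and oxaloacetate, gave -0.82 in Autonomic (SE 0.224, adjusted p = 0.164), -0.78 in Glia (adjusted p = 0.187) and 0.03 in Mesenchymal (adjusted p = 0.988) against NCSCs.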

How the data were processed

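RNA of 16 samples was measured on Affymetrix arrays. The submitters' processing notes name RMA, with no version. The authors deposited one table of intensity values for 45101 probe sets; the values run from 1.49 to 31600, so they are on a linear scale, and their log2 was taken with no offset. Array medians of log2 intensity were 3.05 to 3.15, and no further normalization was applied. Arrays have no read depth, and their number limits the precision. GEO's platform annotation gave 34958 probe sets 1 gene symbol, 932 several, and 9211 were not listed; symbols were updated through Entrez identifiers (99.4% matched). Genes were fitted with limma 3.58.1 in R 4.3.3 over all 4 groups without covariates, and p-values were adjusted over 18194 genes; groups were taken from the sample titles. The 95% intervals are limma's.

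Values by array were given for members called in any comparison and, up to 8, for those with the smallest p against NCSCs; from the pathway list, the 2 genes with the smallest p were named, and other markers and genes only where a property of the arrays turned on them. The members and lists were chosen with earlier results of these data known. Alternatives covered the probe set, filter, offset, scaling, covariates, weights, the arrays fitted and each array left out; the Xist covariate was added after the data were seen.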

Additional observations from a re-analysis of the deposited data

Results flagged for a closer look

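Of 128 groups of 4 arrays examined, 1 per member and group, 7 held an array far from the other 3, where chance gives about 1 in 20. Dld read 9.68 in Autonomic replicate 1, with the others at 7.43 to 7.76. Pdhx read 2.64 in Autonomic replicate 4, with the others at 5.28 to 5.54. Cs read 10.06 in Mesenchymal replicate 2, with the others at 9.37 to 9.46. Idh3a read 6.76 in NCSCs replicate 3, with the others at 7.66 to 7.78. Sdhd read 10.05 in Autonomic replicate 3, with the others at 9.53 to 9.61. Fh1 read 6.48 in Glia replicate 4, with the others at 7.36 to 7.46. Mdh2 read 12.05 in Mesenchymal replicate 4, with the others at 11.95.

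Differences between primed groups passed limma's test for Pdk1 between Glia and Mesenchymal (-2.94) and between Autonomic and Mesenchymal (-3.09), and for Idh1 between Autonomic and Mesenchymal (-1.81).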

How the results depend on the processing

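Over all alternatives, 6660 values of members kept their call or, where not called, moved by less than the spread between replicates, 142 uncalled values moved by more, 10 came past the threshold, 37 no longer passed, and 0 called values changed sign. The count of members called lower in Glia against NCSCs was 1. It was 0 with the replicate block, quantile or cyclic loess normalization, housekeeping centring, probe sets of possible cross-matching left out, the Gapdh covariate, only the groups compared, or the Xist covariate. It was 2 with the mean of all probe sets or the most variable one, and 0 to 1 with single arrays left out. In Autonomic against NCSCs the count was 1; it was 2 over genes above the median intensity or with the mean of probe sets, 0 without cross-matching probe sets or with only the groups compared, and 1 to 2 with single arrays left out. For the primed mean it was 1; it was 0 with the replicate block, either normalization, housekeeping centring, cross-matching probe sets left out, or the Gapdh or Xist covariate, 2 with the mean of probe sets, and 0 to 1 with single arrays left out. Between Glia and Mesenchymal it was 1; it was 0 with the replicate block, only the groups compared or the Xist covariate, 2 with the mean of probe sets, an offset of 16 or array weights, and 0 to 2 with single arrays left out. Between Autonomic and Mesenchymal it was 2, and 1 with housekeeping centring, without cross-matching probe sets or with the most variable probe set. The members' median change in Glia was 0.0997 with housekeeping centring, -0.419 with the most variable probe set, -0.0786 with quantile and -0.0827 with cyclic loess normalization and -0.328 with the Gapdh covariate. In Autonomic it was -0.0638, -0.0261, -0.00337 and -0.249 with quantile, cyclic loess, housekeeping centring and the Gapdh covariate, and -0.0781, -0.0717 and -0.0941 without NCSCs replicate 3, NCSCs replicate 4 or Autonomic replicate 4; between Glia and Mesenchymal it was 0.0979 with housekeeping centring. With cross-matching probe sets left out Idh1 had no value, since both its probe sets are of that kind. Causes of the other shifts were not tested. No pairing by replicate number was visible, though the labels do not say whether same-numbered arrays share a culture or embryo. Deviations of same-numbered arrays correlated between -0.0671 and 0.0641 over 24 pairs, and 2 of 16 arrays correlated best with an array of their own number. With the replicate block, Idh1 had an adjusted p of 0.0689 in Glia, 0.0649 for the primed mean, 0.0137 in Autonomic and 0.0186 in Autonomic against Mesenchymal, and Pdk1 had 0.0674 in Glia and 0.0386 in Autonomic against Mesenchymal.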
